A study of Homo sapiens with 6 samples.

Results

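The genes described here are 8 members of the cadherin superfamily, CDH1, CDH2, CDH3, CDH4, CDH6, CDH11, CDH13 and CDH16, in Caki-1 cells with and without VHL. They are 8 of the 60708 genes in the count table and were matched by gene symbol. The 8 genes were chosen from the measured VHL-KO and VC expression values of this same comparison, together with their family membership. Their values are therefore given as a description, with a standard error (SE) from the fit of all genes, and adjusted p-values are given only for genes outside the 8.

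Caki-1 is a human clear cell renal carcinoma line, and VHL is the substrate receptor of the ubiquitin ligase that marks hypoxia-inducible factors (HIFs) for destruction. RNA-seq compared 3 samples of control cells (VC, wild-type genotype, infected with the lenti-CRISPR vector only) with 3 samples of VHL-KO cells (VHL-knockout genotype, infected with lenti-CRISPR carrying sgRNA-VHL). Both groups were in the same Caki-1 background, and infected cells were selected with puromycin. The methods describe the VHL-KO cells as clonal, picked after plating in multiwell plates and screened by immunoblot. The number of clones behind the 3 VHL-KO samples is not stated, so a property of a clone cannot be told apart from the loss of VHL. Nothing states that samples of a group came from separate cultures, so SEs and p-values measure the spread between these samples, which may be technical. Total counts were 31789923, 28463579 and 34881739 for VC replicates 1 to 3, and 29139722, 22805385 and 22628246 for VHL-KO replicates 1 to 3.

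Cadherins are calcium-dependent adhesion proteins that join neighbouring cells, and classical cadherins bind catenins through the cytoplasmic tail and so reach the actin cytoskeleton. Kidney tubules use several of them at once: proximal tubule cells rely on N-cadherin and cadherin-6, more distal segments on E-cadherin, and kidney-specific cadherin is also found in tubule epithelium. Not all 8 genes encode classical cadherins. CDH1, CDH2, CDH3 and CDH4 encode the type I proteins E-, N-, P- and R-cadherin, CDH6 and CDH11 encode type II classical cadherins, CDH13 encodes T-cadherin, which is held in the membrane by a lipid anchor, and CDH16 encodes kidney-specific cadherin, whose short tail lacks the catenin-binding region.

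The knockout was checked first at the edited gene. As TMM-normalized CPM, VHL stood at 42.6, 37.8 and 40.1 in VC replicates 1 to 3 and at 34.8, 30.4 and 30.5 in VHL-KO replicates 1 to 3. All 3 VHL-KO samples lay below all 3 VC samples, and the log2 fold change of VHL-KO minus VC was -0.33 ± 0.11 (SE; edgeR adjusted p = 0.0109). VHL lost this call in 5 of 15 alternative settings, and 23.5% of its exon bases overlap an antisense gene. An edit that disables the protein need not lower the mRNA, so transcript level is a weak check on the labels. CA9, a HIF target in kidney cancer, was nearly absent from VC replicates 1 to 3 (0, 0 and 2 counts) and present in VHL-KO replicates 1 to 3 (288, 247 and 233 counts), although 35.7% of its exon bases overlap other annotated genes. The ratio of its pooled normalized counts was 562, with a 95% counting interval from 155 to 4646. The ratio rests on 2 reads in VC replicate 3, and the log2 fold change of CA9 was 8.85 with all samples and 11.21 without that replicate. Of the other hypoxia-regulated genes followed, NDRG1 rose by 6.03 ± 0.11 and ADM by 3.55 ± 0.13 on the log2 scale (edgeR adjusted p = 7.28e-23 and 4.99e-17), in 3 of 3 VHL-KO samples each. EGLN3, which encodes a HIF prolyl hydroxylase and is itself a HIF target, went the other way in 3 of 3 samples (-1.26 ± 0.35; edgeR adjusted p = 0.00337), at 1.72 ± 0.323 CPM (SD, n = 3) in VC and 0.731 ± 0.309 CPM (SD, n = 3) in VHL-KO cells.

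Much of the transcriptome differed between the groups. At an adjusted p under 0.05, 10394 of 17401 tested genes were called (59.7%), 4958 higher (28.5%) and 5436 lower (31.2%) in VHL-KO cells. With library size in place of TMM, the split was 3764 higher and 6737 lower. With upper quartile factors it turned, to 5712 higher and 4668 lower. Over all tested genes the log2 fold change had a median of -0.20 with library size, against -0.01 with TMM and 0.10 with upper quartile factors. Of the 8 cadherin genes, 6 passed the filter, which asks for 10 reads or more in some sample. CDH1 and CDH11 did not. Past the same threshold were 5 of the 6, beside 59.7% of all tested genes, and nothing is read from that count because the genes were chosen from this comparison.

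**Figure D1:**
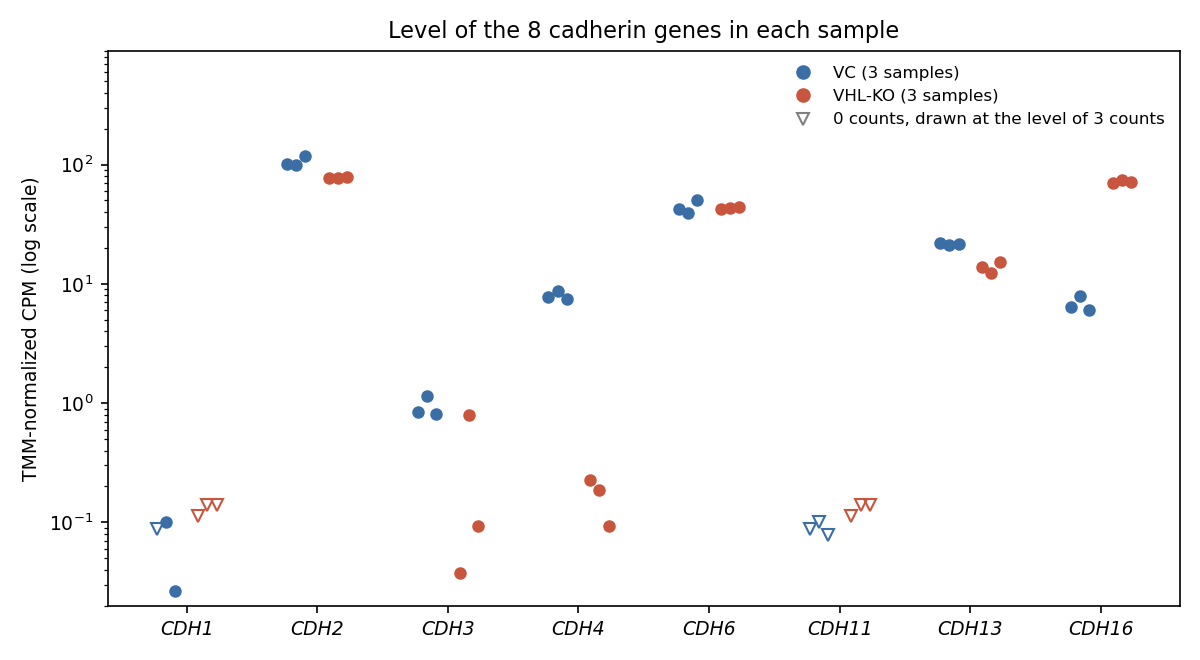
TMM-normalized CPM of the 8 cadherin genes on a log axis, with 1 point for each of the 3 VC (blue) and 3 VHL-KO (red) samples. Triangles mark samples with 0 counts, drawn at the level of 3 counts in that sample. CDH16 lies between 6.01 and 7.88 CPM in VC and between 70.7 and 74.2 CPM in VHL-KO cells, and CDH4 lies at or above 7.40 CPM in VC and at or below 0.225 CPM in VHL-KO cells.

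Among the type I genes, N-cadherin was the one expressed at a high level. CDH2 had 102, 99.6 and 118 CPM in VC samples 1 to 3 and 77.1, 77.7 and 78.8 CPM in the VHL-KO samples. The groups did not overlap, the 3 VHL-KO samples were nearly equal, and VC replicate 3 was the highest. CDH2 was 1.37-fold lower in VHL-KO cells (log2 fold change -0.45 ± 0.09, SE). The gene lies on the minus strand (chr18:27932879-28177946, GRCh38), with 16335 counts over the 6 samples, the most of any of the 8. With offsets that remove each library's trend with GC content and length, its difference was -0.15, though real differences that track GC content are taken out by such offsets too. In these bulk samples, fewer cells carrying a transcript and less of it per cell cannot be told apart.

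CDH4, the gene of R-cadherin, first described in the retina and also known from the developing kidney, showed the largest difference of the 8. VC replicates 1 to 3 held 265, 258 and 281 CDH4 counts (7.76, 8.68 and 7.40 CPM). VHL-KO replicates 1 to 3 held 6, 4 and 2 (0.225, 0.185 and 0.0938 CPM). Every VHL-KO sample was thus close to the level of 3 counts, which is the upper limit that a count of 0 allows and equals 0.079 to 0.141 CPM in these libraries. The log2 fold change was -5.49 ± 0.30 (SE), and the pooled counts (804 in VC, 12 in VHL-KO) gave a ratio of 45.8-fold lower, with a 95% counting interval from 26.1 to 89.0. Such intervals cover counting error only. For CDH4 the interval is wider than the SE implies. The SE was derived from the test statistic and is too small here, where the VHL-KO samples are nearly empty. CDH4 is a long gene on the plus strand (chr20:61252261-61940617), and none of its exon bases overlap those of another annotated gene.

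CDH3, the gene of P-cadherin, was low in VC cells and uneven among the VHL-KO samples. VC replicates 1 to 3 held 29, 34 and 31 CDH3 counts (0.849, 1.14 and 0.817 CPM), and VHL-KO replicates 1 to 3 held 1, 17 and 2 (0.0374, 0.788 and 0.0938 CPM). VHL-KO replicate 2 thus stood just under the lowest VC sample, while the other VHL-KO samples were almost empty. CDH4 was at 4 counts in that same sample, and CA9 at 247 counts. The log2 fold change of CDH3 was -1.65 ± 0.61 (SE) with all samples and -3.80 without VHL-KO replicate 2. In that sample 22 tested genes with at least 15 counts exceeded 4 times both other VHL-KO samples, against 27 in replicate 1 and 13 in replicate 3, and against 6, 3 and 3 in VC replicates 1 to 3 by the same rule. Single VHL-KO samples thus stood apart more often than single VC samples.

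CDH1, the gene of E-cadherin, the cadherin of most epithelia, was almost silent. It had 0, 3 and 1 counts in VC and 0 in each VHL-KO sample. All 6 values were at or under the level of 3 counts, so no fold change is given, and a difference between the groups was not detectable at this depth. CDH1 and CDH3 lie side by side on the plus strand of chromosome 16 (chr16:68737292-68835537 and chr16:68636189-68727468), with 101 kb between their starts.

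Of the type II genes, only CDH6 was expressed. CDH6, the gene of cadherin-6 (K-cadherin), known from the fetal kidney, the proximal tubule and renal carcinoma, had 42.6, 39.5 and 50.1 CPM in the VC samples. It had 42.7, 43.4 and 43.9 CPM in the VHL-KO samples, inside the range of the VC samples. The log2 fold change was -0.03 ± 0.11 (SE), so the difference was smaller than its error. Its sign depended on the scaling, at -0.22 with library size alone, 0.09 with upper quartile factors and 0.42 with GC and length offsets. CDH6 transcripts have the lowest GC content of the 8 genes, at 40.0% for the longest transcript, against 60.5% for CDH16 and 59.7% for CDH4. CDH11, whose product is typical of mesenchymal cells, had 0 counts in all 6 samples, which allows up to 0.141 CPM in the shallowest.

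CDH13 encodes T-cadherin, a lipid-anchored receptor that binds adiponectin and has no cytoplasmic tail. It had 21.9, 21.2 and 21.4 CPM in the VC samples and 13.9, 12.4 and 15.3 CPM in the VHL-KO samples. The VC samples were tight and all lay above the VHL-KO samples. CDH13 was 1.55-fold lower in VHL-KO cells (log2 fold change -0.63 ± 0.13, SE), and -0.31 with GC and length offsets. An antisense gene covers 21.4% of its exon bases and held 1 count over all samples, although without strand information reads on shared bases cannot be assigned to either gene.

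CDH16 was the cadherin gene that was higher in VHL-KO cells. Its product, kidney-specific cadherin, marks the basolateral membrane of tubule epithelium. VC replicates 1 to 3 held 218, 234 and 228 CDH16 counts (6.38, 7.88 and 6.01 CPM), and VHL-KO replicates 1 to 3 held 1888, 1600 and 1530 (70.7, 74.2 and 71.8 CPM). Each VHL-KO sample was far above each VC sample and the 3 were alike. CDH16 was 10.7-fold higher in VHL-KO cells (log2 fold change 3.42 ± 0.12, SE). Its log2 fold change stayed between 3.13 and 3.56 under the 15 alternative settings, and no other annotated gene shares its exon bases (chr16:66908122-66918917, minus strand).

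**Figure D2:**
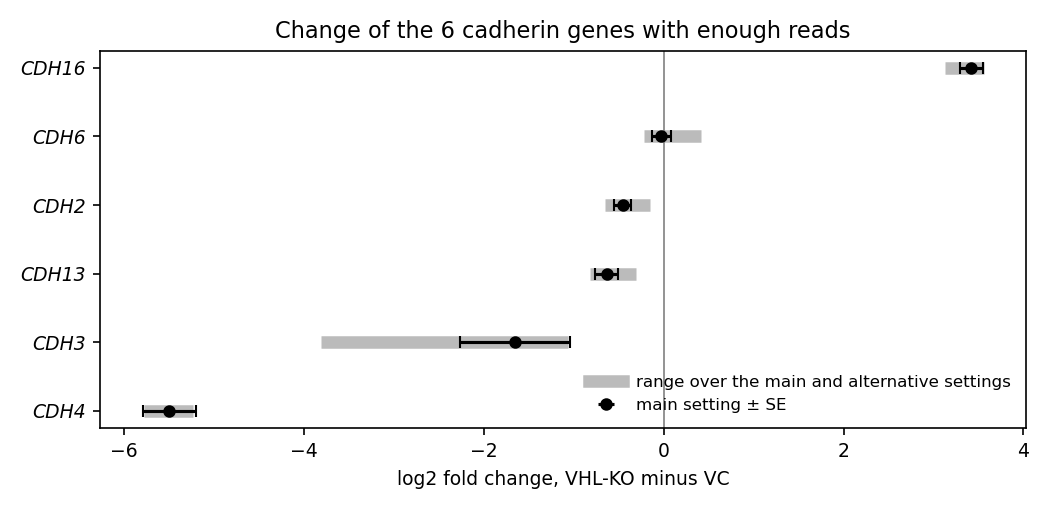
Log2 fold change (VHL-KO minus VC) of the 6 cadherin genes that passed the read filter. Points and bars are the main value ± SE, and grey bands span the values over the main and alternative settings. The bar of CDH4, nearly empty in VHL-KO cells, is shorter than its counting interval implies. The band of CDH6 includes 0, from -0.22 to 0.42, and that of CDH3 is the widest, from -3.80 to -1.06.

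The genes differ in length, so their levels were compared per kb of merged exon. In VC cells the order was CDH2 at 12.4 ± 1.19 CPM per kb (SD, n = 3), CDH6 at 3.54 ± 0.435, CDH13 at 1.95 ± 0.0358, CDH16 at 1.88 ± 0.275, CDH4 at 1.06 ± 0.0879 and CDH3 at 0.147 ± 0.0282 CPM per kb. CDH13 and CDH16 overlapped in this order and were not separable there, nor were CDH1 and CDH11, which were at or near 0. The remaining adjacent pairs in VC had ranges that did not overlap. In VHL-KO cells CDH16 came first at 20.1 ± 0.496 CPM per kb (SD, n = 3), followed by CDH2 at 9.07 ± 0.0997, CDH6 at 3.48 ± 0.0494 and CDH13 at 1.26 ± 0.132 CPM per kb. CDH3 and CDH4 followed at 0.0479 ± 0.0654 and 0.0223 ± 0.00893 CPM per kb (SD, n = 3) and overlapped each other. The CDH3 value came mostly from VHL-KO replicate 2 and was 0.0103 CPM per kb without it, below CDH4, so these genes have no order.

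CDH2 therefore made up 59.0% ± 1.95 (SD, n = 3) of the summed level of the 8 genes in VC and 26.7% ± 0.374 in VHL-KO samples. CDH16 went from 9.02% ± 1.71 to 59.2% ± 0.694 (SD, n = 3) of the sum. The sum itself was 20.2, 20.3 and 22.5 CPM per kb in the VC samples and 33.4, 34.5 and 34.1 CPM per kb in the VHL-KO samples. CDH16 has the shortest merged exons of the 8 (3.59 kb, against 8.58 kb for CDH2), which raises its level per kb. The ratio of CDH16 to CDH2 was between 0.121 and 0.189 in VC and between 2.18 and 2.28 in VHL-KO samples. This ratio depends on the length used: with the longest annotated transcript it was 1.03 to 1.08 in VHL-KO samples, so that the genes were then nearly equal. On that length CDH16 held 5.10% of the sum in VC and 43.7% in VHL-KO cells, and CDH2 held 70.2% and 41.5%. Among all tested genes with an annotated length, CDH16 was above 50.3% in VC and above 88.2% in VHL-KO cells per kb of exon, while CDH2 was above 82.6% and 78.2%.

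**Figure D3:**
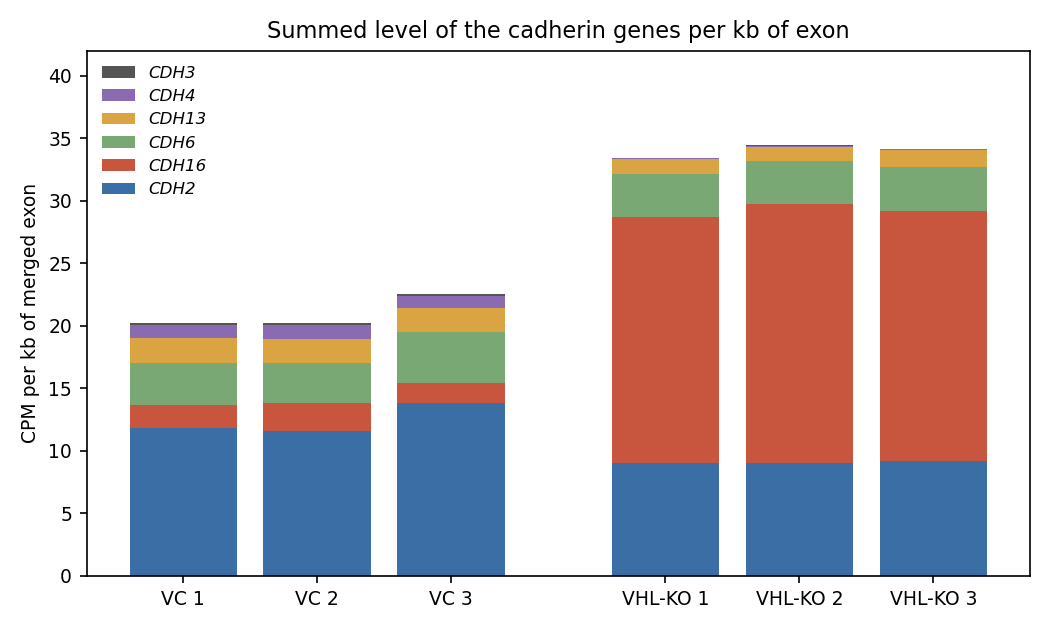
CPM per kb of merged exon, stacked by gene, for each of the 6 samples, without CDH1 and CDH11, which reached at most 0.0166 CPM per kb. The CDH2 part is at least 11.6 CPM per kb in each VC sample and at most 9.18 in each VHL-KO sample, while the CDH16 part grows from at most 2.19 to at least 19.7 CPM per kb.

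Sequence upstream of RefSeq transcript starts was examined for CDH2 and CDH4, which were both lower in VHL-KO cells. RefSeq promoter windows (GRCh38.p14) were matched for 2 of the 8 genes, with 2 starts each. The 250 bases before 1 start of each gene are shown, 5′ to 3′. Hypoxia response element cores (ACGTG or GCGTG, either strand) and the E-boxes CAGGTG and CACGTG (either strand) are in capitals. The window shown for each gene is the one that holds a core, so the presence of a core there is no finding. An ACGTG core is also part of a CACGTG box. The CDH2 window is chr18:28177131-28177380 on the minus strand. It lies inside the span annotated for CDH2 in GENCODE, which includes a transcript that starts further upstream. The CDH4 window is chr20:61599511-61599760 on the plus strand, which lies in an intron of the longest CDH4 transcript and before the start of a shorter one. Both CDH4 windows lie inside the annotated span of the gene, which begins at chr20:61252261. The bases before that first annotated start were not examined.
CDH2: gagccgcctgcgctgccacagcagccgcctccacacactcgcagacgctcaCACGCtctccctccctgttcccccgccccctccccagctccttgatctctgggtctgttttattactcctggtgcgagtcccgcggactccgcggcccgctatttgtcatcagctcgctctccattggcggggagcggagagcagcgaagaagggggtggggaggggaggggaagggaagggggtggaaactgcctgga
CDH4: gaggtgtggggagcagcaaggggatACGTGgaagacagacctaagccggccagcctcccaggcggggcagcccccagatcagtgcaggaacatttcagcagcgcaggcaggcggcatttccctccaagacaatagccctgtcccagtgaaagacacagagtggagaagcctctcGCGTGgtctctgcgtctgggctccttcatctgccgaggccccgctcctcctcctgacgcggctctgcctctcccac
The CDH2 window holds 1 GCGTG core, read on the opposite strand, and no E-box of either kind. The CDH4 window holds 1 ACGTG core and 1 GCGTG core, and neither E-box. Of 35116 promoter windows of the same length, 18.5% hold ACGTG, 32.2% hold GCGTG, 43.2% hold either, 17.5% hold CAGGTG and 6.34% hold CACGTG. Of the windows not shown, the second CDH2 window (chr18:28036642-28036891) holds none of these motifs and the second CDH4 window (chr20:61499171-61499420) holds 1 CAGGTG. Each also lies inside the annotated span of its gene. A match is a run of letters and not a bound site.

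The genes next to the 8 on the chromosomes did not share 1 direction. Genes were placed by their lower chromosome coordinate, which is the 3′ end of the minus-strand genes CDH2, CDH11 and CDH16. Taking the 3 nearest tested genes on each side of that coordinate gave 42 different genes outside the 8. Of these, 10 were higher, 18 lower and 14 not past the threshold, beside 28.5% higher and 31.2% lower among all tested genes. Distances between lower coordinates ranged from 11.3 kb (AC015933.2 from CDH2) to 9311 kb (HSPD1P1 from CDH6), so some were not close. AC015933.2 is not a separate neighbour, since it shares 307 exon bases with CDH2 on the opposite strand. Around CDH4, the neighbours TAF4 (-1.19 ± 0.13), PRELID3B (-0.78 ± 0.12), PPP1R3D (-0.76 ± 0.18) and LSM14B (-0.29 ± 0.10) were lower on the log2 scale, all by far less than CDH4. FAM217B and RP11-11M20.4 did not pass the threshold. Around CDH16, CES2 (1.25 ± 0.09), RRAD (0.96 ± 0.10), CIAO2B (0.49 ± 0.10) and RP11-61A14.1 (1.87 ± 0.64) were higher, NAE1 was lower (-1.18 ± 0.14), and PDP2 (0.05 ± 0.11) did not pass. Around CDH2, CHST9 (-0.76 ± 0.24), DSC3, DSG2 and a gene known only by a clone-based name (-0.87 ± 0.22) were lower, DSC2 was higher, and AC015933.2 (0.62 ± 0.50) did not pass.

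CDH1 and CDH3 share most of their neighbours. There TANGO6 (-1.04 ± 0.13), HAS3 (-0.65 ± 0.10) and PRMT7 (-0.44 ± 0.12) were lower and RP11-96D1.3 was higher (1.86 ± 0.70), while ZFP90 (0.16 ± 0.14) and RPS2P45 (0.08 ± 0.84) did not pass. Next to CDH6, itself at -0.03, PDZD2 fell the most of the 42 (-4.15 ± 0.47; edgeR adjusted p = 5.44e-08). Also lower around CDH6 were DROSHA (-0.72 ± 0.10), C5orf22 (-0.75 ± 0.19) and, 9311 kb away, HSPD1P1 (-1.68 ± 0.39), while CDH10 and PURPL did not pass. Next to CDH13, OSGIN1 and PLCG2 were higher (0.66 ± 0.11 and 0.58 ± 0.15) and MPHOSPH6 was lower (-1.04 ± 0.14), with HSBP1, MLYCD and RP11-274A11.4 not past the threshold. Around CDH11, TK2 (1.34 ± 0.11) and CKLF (1.31 ± 0.40) were higher and GOT2, 6237 kb away, was lower (-0.91 ± 0.09). There RPS27AP16, RP11-368L12.1 and LINC00920 were not past the threshold.

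Patterns over the 6 samples were compared on log2 of CPM plus 0.5. Of the 9006 genes compared, those most like CDH2 were FYTTD1 (Pearson r = 0.999), DCTN4 (r = 0.998) and TES (r = 0.998). For CDH4 they were TSR1, SH3BP5 and C1QBP, each with r = 0.999. These values describe 6 points that fall into the VC and VHL-KO groups, so a high r is common: 17.4% of the 9006 genes compared had an r above 0.95 with CDH2, and 20.2% with CDH4.

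Partner genes were tested in 8 lists holding 103 genes, of which 67 were tested. Past the threshold were 45, of which 18 were higher and 27 lower, beside 59.7% of all tested genes (28.5% higher and 31.2% lower). The median log2 fold change of the 67 tested genes was -0.24, against -0.01 over all 17401. Of the 103, 19 had no read in any sample.

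The catenins link the cadherin tail to actin, and the main ones moved in different directions. In the list of catenins and plaque proteins, 4 of 12 tested genes were higher and 6 lower, beside 28.5% higher and 31.2% lower among all tested genes. CTNNB1, the gene of beta-catenin, which binds the tail directly and also acts in WNT signalling, had 185 ± 16.6 CPM (SD, n = 3) in VC and 78.0 ± 7.78 in VHL-KO cells. It fell by 1.24 on the log2 scale (SE 0.10; edgeR adjusted p = 1.22e-10), in 3 of 3 samples. JUP, the gene of plakoglobin, which can take the place of beta-catenin on the tail and also sits in desmosomes, went from 21.7 ± 1.59 to 106 ± 2.08 CPM (SD, n = 3). JUP rose by 2.29 ± 0.10 on the log2 scale (edgeR adjusted p = 2.65e-15), in 3 of 3 samples. CTNNA1, the gene of alpha-catenin, the actin link, was lower by a small amount (-0.23 ± 0.09; edgeR adjusted p = 0.0301), a call that held in 6 of 15 alternative settings. CTNND1, the gene of p120-catenin, which holds cadherins at the surface, was higher (0.84 ± 0.24; edgeR adjusted p = 0.00396). Its counts are uncertain, since 39.1% of its exon bases lie in other annotated genes, mostly the readthrough gene TMX2-CTNND1, which had 0 counts in every sample, and VC replicate 2 had 57 counts against 167 and 160 in the other VC samples. With GC and length offsets its value was 1.27. The actin regulators VCL (-1.45 ± 0.10) and LIMA1 (-1.76 ± 0.12) were lower (edgeR adjusted p = 6.44e-12 and 1.06e-11). VCL encodes vinculin, which is recruited to junctions under tension.

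Nectins are immunoglobulin-type adhesion proteins that form junctions beside the cadherins. NECTIN1 (-1.51 ± 0.16) and NECTIN3 (-0.94 ± 0.19) were lower and NECTIN2 was higher (0.74 ± 0.10; edgeR adjusted p = 1.10e-08, 1.19e-04 and 5.68e-07 in this order). NECTIN2 was also the most abundant of the 4 in CPM in each group, at 84.7 and 142 CPM. With GC and length offsets NECTIN3 was at -0.45 and NECTIN2 at 0.35, both still called. The remaining tested nectin did not pass the threshold. Among all tested genes 28.5% were higher and 31.2% lower.

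No further classical cadherin was expressed at a level near that of CDH2. Of 12 other classical genes, 3 were tested and 6 had no read. CDH24 was lower, at 14.4 ± 1.30 CPM (SD, n = 3) in VC and 8.81 ± 1.24 in VHL-KO cells (log2 fold change -0.70 ± 0.15; edgeR adjusted p = 2.88e-04), and the other 2 did not pass. Desmosomal cadherins anchor keratin filaments at the plaque that plakoglobin serves. DSG2 was lower (-0.98 ± 0.13; edgeR adjusted p = 4.18e-07) and DSC2 higher (0.76 ± 0.17; edgeR adjusted p = 3.68e-04). DSC3 was lower (-1.03 ± 0.33; edgeR adjusted p = 0.0102), with overlapping groups and a call lost with GC and length offsets (-0.55) and without VC replicate 3 (-0.76) or VHL-KO replicate 3 (-0.80). With the same offsets DSG2 was at -0.57, DSC2 at 1.22 and CDH24 at -1.07. The 4 other desmosomal genes were not tested. Of the 3 tested, 1 was higher and 2 lower, beside 28.5% higher and 31.2% lower among all tested genes. DSC2, DSC3 and DSG2 are also the nearest tested genes to CDH2 on one side, 3056 kb and more away between lower coordinates.

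Among 30 more distant relatives, 18 were tested, with 6 higher, 5 lower and a median log2 fold change of -0.04. Of all tested genes, 28.5% were higher and 31.2% lower. CLSTN3, a calsyntenin, rose by 1.58 ± 0.11 on the log2 scale and CELSR2, a seven-pass cadherin of planar polarity, by 0.77 ± 0.11 (edgeR adjusted p = 1.48e-11 and 2.26e-06). CELSR1 (-0.90 ± 0.12) and the giant protocadherin FAT1 (-0.77 ± 0.10) were lower (edgeR adjusted p = 7.03e-07 and 3.37e-07). CELSR2 was at 0.49 with GC and length offsets.

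**Figure D4:**
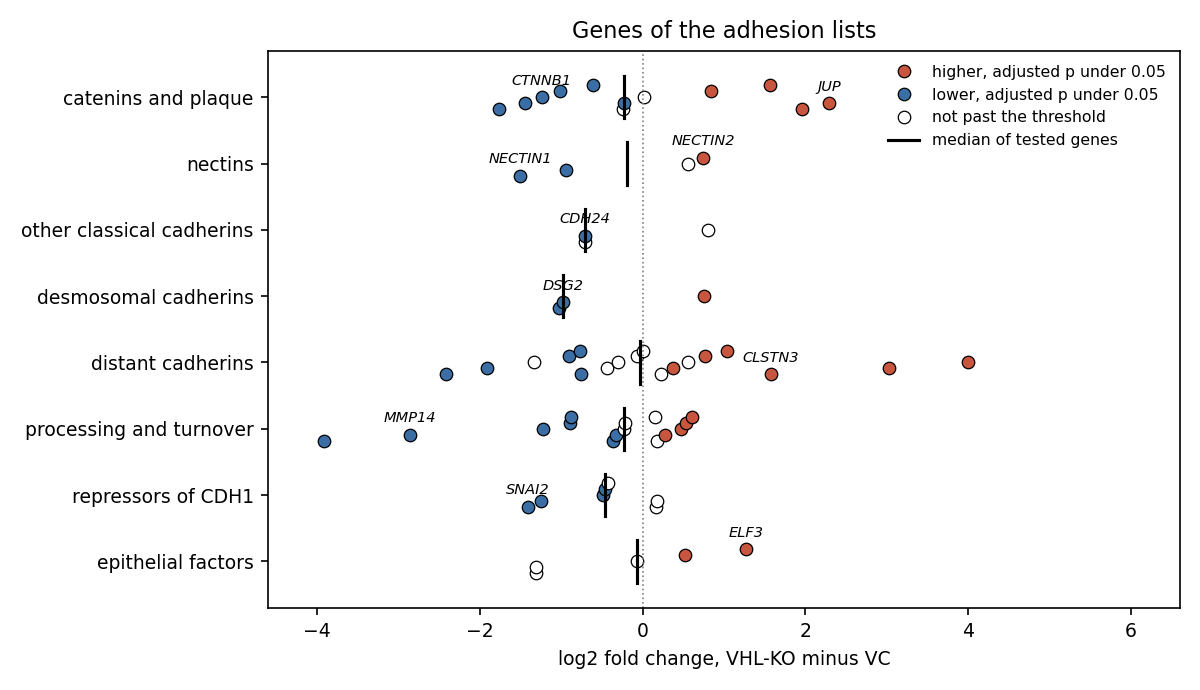
Log2 fold change (VHL-KO minus VC) of each tested gene in the 8 lists, in red where called higher, blue where called lower and white where not past an adjusted p of 0.05. Black bars mark the median of the tested genes of a list, and no list had all its tested genes on 1 side of 0.

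Cadherins are also controlled at the protein level, by proteases that mature or shed them and by endocytosis. In this list 4 of 15 tested genes were higher and 7 lower, beside 28.5% higher and 31.2% lower among all tested genes. Leaving out VC replicate 1 gave 2 higher, as did library size alone and no filter beyond 1 count. MMP14, a membrane metalloprotease, fell from 82.9 ± 7.31 to 11.5 ± 1.29 CPM (SD, n = 3; log2 fold change -2.86 ± 0.12; edgeR adjusted p = 8.63e-16). ADAM9 (-1.22 ± 0.12) and CBLL1 (-0.89 ± 0.13), the gene of the ubiquitin ligase Hakai, which targets E-cadherin, were lower (edgeR adjusted p = 8.11e-09 and 1.63e-06). ADAM15 was higher (0.54 ± 0.10; edgeR adjusted p = 8.02e-05). With GC and length offsets ADAM9 was at -0.73, CBLL1 at -0.43 and ADAM15 at 0.22, and with library size alone ADAM15 was at 0.35.

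Of the transcription factors known to repress CDH1, 7 were tested, with 4 lower and 0 higher, beside 31.2% lower and 28.5% higher among all tested genes. SNAI1 (-1.24 ± 0.13), SNAI2 (-1.41 ± 0.20), TWIST1 (-0.49 ± 0.14) and TCF3 (-0.46 ± 0.09) were lower in 3 of 3 samples (edgeR adjusted p = 7.25e-09, 1.75e-06, 0.00477 and 1.62e-04). With GC and length offsets TWIST1 was at -0.93 and TCF3 at -0.76. The other 3 did not pass, and their calls depended on the setting: 2 were called higher with GC and length offsets, and the remaining gene was called lower in other settings, such as library size alone. Among the epithelial and kidney factors, ELF3 rose by 1.27 ± 0.10 on the log2 scale and PAX8, a factor of the kidney lineage, by 0.52 ± 0.09 (edgeR adjusted p = 1.12e-10 and 1.64e-05). PAX8 was at 0.33 with library size alone. Other annotated genes overlap 22.4% of the exon bases of PAX8 and 18.5% of those of ELF3. Of the other factors in that list, 3 were tested without a call and 3 genes had no read in any sample.

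Markers of kidney epithelium, fibroblasts and endothelium were read beside these results. A leukocyte list was also read and is left out here. Of 12 kidney epithelium markers, 7 had more than 3 counts in some sample, with a summed level of 1491, 1694 and 1342 CPM in the VC samples and 2154, 2081 and 2089 CPM in the VHL-KO samples. KRT8 was the most abundant, and PAX2, LRP2, UMOD and AQP2 were at 0. This list includes CA9, read above as a HIF target. In it EPCAM was called lower (-1.42 ± 0.41, edgeR adjusted p = 0.00477), at a mean of 1.33 CPM in VC and 0.491 CPM in VHL-KO cells. The other tested genes of this list were called higher, beside 28.5% higher and 31.2% lower among all tested genes. Among them SLC12A3 and CUBN rest on few reads. SLC12A3 had means of 0.0942 CPM in VC and 0.461 CPM in VHL-KO cells, and CUBN had 0.843 and 1.70 CPM. Of 7 fibroblast markers, 3 passed 3 counts, with a sum of 43.3, 47.3 and 37.2 CPM in VC and 30.0, 27.2 and 25.5 CPM in VHL-KO samples. COL1A1 was the most abundant and was lower (-0.42 ± 0.12; edgeR adjusted p = 0.00424). PDGFRB fell further (-1.94 ± 0.20; edgeR adjusted p = 7.66e-09). PDGFRA went the other way, with 4 counts in VHL-KO replicate 1 and 0 in the other samples. COL3A1 and LUM were at 0. The 6 endothelial markers summed to 0.234, 0.168 and 0.237 CPM in VC and 0.711, 0.324 and 0.469 CPM in VHL-KO samples. PECAM1 was the most abundant in VHL-KO cells and was higher in 3 of 3 samples at few reads (2.73 ± 0.90; edgeR adjusted p = 0.0117). KDR, the most abundant in VC, went the other way. It had 4, 0 and 9 counts in VC replicates 1 to 3 and 0 in each VHL-KO sample, and was not tested. TEK and CLDN5 were at 0. A sum follows its most abundant genes, and any link to the cadherin levels was not tested.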

How the data were processed

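RNA-seq was run on 3 VC and 3 VHL-KO samples, grouped by their labels. Per the methods and processing notes, reads were trimmed with Trim Galore and cutadapt, aligned with STAR to GRCh38.p13, limited to single mapping locations with SAMtools and summed per gene with HTSeq. The deposited table from the authors holds the raw count of each gene. Annotation release, strandedness and counting mode are not stated.

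Testing was limited to the 17401 of 60708 genes that reached 10 reads in some sample and was done with edgeR 4.0.16 (R 4.3.3), using TMM factors, the quasi-likelihood test and Benjamini-Hochberg adjustment over all tested genes, called at an adjusted p under 0.05, two-sided. SEs came from the same fit. The code was checked on simulated counts. Lengths, positions and overlaps came from GENCODE 44 on GRCh38. Named genes were the 8 cadherins, VHL with 4 hypoxia genes, the nearest 3 tested genes on each side of each cadherin gene (1 left without its clone-based name), and in each list every called gene where there were 5 or fewer, otherwise the 4 with the largest change and at least 10 CPM in a group, with 4 catenins always. The cadherins and lists were chosen with earlier results of these data known. Alternatives were DESeq2 1.42.0, other scaling factors and filters, each replicate left out, the replicate block, and GC and length offsets (natural splines, 5 degrees of freedom), which were also combined. Chi-square per degree of freedom between replicates was 6.43 to 35.3, above the level of sampling noise, so none was a copy.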

Additional observations from a re-analysis of the deposited data

How the results depend on the processing

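Each cadherin fold change moved under some of the 15 alternatives. Among the cadherin genes only CDH6 changed sign, and no list gene was called in opposite directions by 2 settings. With at least 10 reads in every sample, 2 catenin and plaque genes were called higher and 3 distant cadherins lower, and CDH3 and CDH4 had no value. With library size alone and with no filter beyond 1 count, 2 processing genes were called higher and 1 epithelial factor lower. Leaving out 1 replicate gave 2 to 3 processing genes higher and 1 to 2 desmosomal genes lower. With GC and length offsets, and with these in the replicate block, 2 repressors were called higher and 1 desmosomal gene lower. The replicate block alone, for which same-numbered replicates were correlated at 0.0627, -0.000449 and 0.0283, gave 4847 genes higher and 5437 lower. With upper quartile factors the log2 fold changes were -0.34 for CDH2, -0.52 for CDH13 and -0.22 for VHL. With library size alone they were -0.65 for CDH2, -5.69 for CDH4, -0.22 for CDH6, -0.82 for CDH13 and 3.23 for CDH16. With GC and length offsets, then with these in the replicate block, they were -0.15 and -0.15 for CDH2, -5.71 and -5.72 for CDH4, 0.42 and 0.42 for CDH6, -0.31 and -0.31 for CDH13, 3.13 and 3.13 for CDH16, and -0.16 and -0.16 for VHL. Leaving out 1 replicate gave -0.48 to -0.35 for CDH2, -3.80 to -1.06 for CDH3, -5.78 to -5.23 for CDH4, 3.36 to 3.56 for CDH16 and -0.39 to -0.28 for VHL. Per kb of the longest transcript, levels in VC and VHL-KO were 26.5 and 19.4 CPM for CDH2, 5.16 and 5.07 for CDH6, and 2.73 and 1.76 for CDH13, with 0.210 for CDH3 and 1.19 for CDH4 in VC. Shares on that length were 70.2% and 41.5% for CDH2, 13.7% and 10.9% for CDH6, and 5.10% and 43.7% for CDH16, with 3.18% for CDH4 and 7.26% for CDH13 in VC. With library size alone, levels per kb of merged exon were 8.48 for CDH2, 3.26 for CDH6 and 18.8 for CDH16 in VHL-KO, and 2.08 for CDH13 in VC.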
